A study of Mus musculus with 9 samples.

Results

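The 48 genes described here encode proteins that copy the genome and divide the cell. They were chosen by name from 29205 genes in the deposited table, and all 48 were found there and passed the filter on low counts in each comparison. In the grouping used throughout, 24 of them act in replication (licensing of origins, the fork, nucleotide supply and entry into S phase) and 24 act in mitosis. The question was whether replication and mitosis genes moved together over the 3 groups of mouse back skin.

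RNA was sequenced from the back skin of male BALB/c mice aged 6 to 8 weeks, with 3 libraries in each of 3 groups. The control group was shaved and depilated only. The IMQ group received 62.5 mg of 5% imiquimod (IMQ) cream daily for 5 days, and skin of all groups was collected on day 13. The LYS-High group received the same cream and Longkui Yinxiao Soup (LYS), a decoction of botanical drugs given by gavage. The labels name the soup without a dose, so "High" comes from the study's methods, and no group had LYS without IMQ. IMQ is a Toll-like receptor agonist whose cream causes psoriasis-like lesions. The study took 3 skin samples per group, but the labels do not tie libraries to mice, so p-values measure the spread between these libraries.

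Before S phase, a ring of 6 MCM proteins is loaded at origins and then unwinds DNA ahead of the polymerases. Genes of this step are switched on by E2F factors when cyclin and CDK activity removes the RB proteins. Mitosis genes follow later in the cycle, when the MuvB complex with B-MYB and then FOXM1 acts at promoters that often carry a CHR element and CCAAT boxes. In skin, dividing cells sit mainly in the basal epidermis and in the matrix of growing hair follicles, and Ki67 and PCNA are the proteins most often stained to count them.

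E2F motifs were found mostly at replication promoters and CHR motifs mostly at mitosis promoters. RefSeq transcript starts on GRCm38.p6 were matched for 38 of the 48 members, 19 of each kind, and the 250 bases before each start were searched on both strands. A gene with several starts was counted for a motif if any of its windows held it. An E2F motif (TTTCCCGC, TTTCGCGC, TTTGCCGC or TTTGGCGC, or their reverse complements) was present for 7 of 19 replication genes (Cdc6, Mcm5, Mcm6, Mcm7, Pola1, Rfc3 and Uhrf1) and for Cdk1 among 19 mitosis genes, against 2.16% of all 27025 genes with such a window. The CHR motif TTTGAA was present for 8 of 19 mitosis genes (Ccnb2, Cdc20, Cdk1, Ect2, Kif11, Mki67, Prc1 and Top2a) and for Mcm2 alone among the replication genes, against 18.3% of all genes. The CCAAT motif was found for 12 replication and 17 mitosis genes, against 37.5% of all genes. A match is a description of the letters, and no E2F, CHR or CCAAT match overlapped a match of another of these 3 motifs. The windows below show 3 replication promoters with E2F motifs and 3 mitosis promoters with CHR and CCAAT motifs, 5′ to 3′ on the strand of the gene, with all 3 motifs in capitals. Uhrf1 holds 1 E2F motif in the window shown and 0 in its other window. Mcm6 holds 3 and Mcm5 holds 2. The 2 of Mcm5 lie on opposite strands, share 4 bases and form 1 stretch, and those of Mcm6 form 2 stretches, 1 of them a pair that also shares 4 bases. Further, Top2a holds 2 CHR and 6 CCAAT motifs, Mki67 2 and 3, and Kif11 1 and 1. No exon in GENCODE M21 falls in any of the 6 windows.

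Mcm5 (chr8:75109259-75109508, plus strand): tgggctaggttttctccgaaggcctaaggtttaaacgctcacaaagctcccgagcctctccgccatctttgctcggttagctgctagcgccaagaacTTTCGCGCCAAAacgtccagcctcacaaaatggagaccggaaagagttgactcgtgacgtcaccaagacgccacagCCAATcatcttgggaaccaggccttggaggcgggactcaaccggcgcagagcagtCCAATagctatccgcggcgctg
Mcm6 (chr1:128359706-128359955, minus strand): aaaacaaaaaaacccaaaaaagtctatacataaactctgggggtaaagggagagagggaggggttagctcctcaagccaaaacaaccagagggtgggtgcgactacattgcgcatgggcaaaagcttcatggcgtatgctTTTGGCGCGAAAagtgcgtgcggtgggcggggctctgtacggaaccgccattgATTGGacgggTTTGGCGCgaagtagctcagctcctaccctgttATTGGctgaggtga
Uhrf1 (chr17:56304063-56304312, plus strand): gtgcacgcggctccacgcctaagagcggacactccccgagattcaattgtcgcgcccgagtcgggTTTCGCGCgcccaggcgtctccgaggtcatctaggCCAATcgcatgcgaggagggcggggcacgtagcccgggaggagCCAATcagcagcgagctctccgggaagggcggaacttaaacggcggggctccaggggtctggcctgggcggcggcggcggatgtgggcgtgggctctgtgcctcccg
Top2a (chr11:99024190-99024439, minus strand): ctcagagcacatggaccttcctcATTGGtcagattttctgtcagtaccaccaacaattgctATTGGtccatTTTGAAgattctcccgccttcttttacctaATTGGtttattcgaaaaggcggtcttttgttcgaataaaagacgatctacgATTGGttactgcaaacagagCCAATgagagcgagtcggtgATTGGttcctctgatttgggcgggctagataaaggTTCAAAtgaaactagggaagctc
Mki67 (chr7:135716380-135716629, minus strand): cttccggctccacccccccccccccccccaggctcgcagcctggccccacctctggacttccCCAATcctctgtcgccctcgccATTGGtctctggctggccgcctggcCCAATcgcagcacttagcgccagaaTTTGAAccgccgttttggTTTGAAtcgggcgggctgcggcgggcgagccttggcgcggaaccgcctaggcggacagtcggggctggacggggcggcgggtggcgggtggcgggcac
Kif11 (chr19:37376132-37376381, plus strand): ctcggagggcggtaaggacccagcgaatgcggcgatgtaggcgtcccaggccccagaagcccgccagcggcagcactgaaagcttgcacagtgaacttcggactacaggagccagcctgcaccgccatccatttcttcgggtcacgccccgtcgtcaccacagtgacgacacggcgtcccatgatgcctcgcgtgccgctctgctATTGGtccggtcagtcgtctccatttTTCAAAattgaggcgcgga

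Levels were compared as CPM, read counts relative to library size, scaled by TMM over all 9 libraries. TMM sets the scale from genes that are assumed not to change between libraries. The summed counts per library were 14658645 to 19609878, the TMM factors 0.825 to 1.18, and the 48 members together took 12140 to 50869 counts per library. Per length, as mean FPKM over the control libraries, Pcna had the highest level of all members at 66.3, followed by Mki67 at 26.7, Cdc20 at 26.7 and Top2a at 24.9. The lowest was Pole, the catalytic subunit of the leading strand polymerase, at 1.85.

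In IMQ skin, replication and mitosis genes were lower than in control skin. Calls were made with edgeR's quasi-likelihood test at a Benjamini-Hochberg adjusted p below 0.05 and a log2 fold change beyond 0.58 in either direction, the thresholds of the study. By this rule 15 of 24 replication genes and 21 of 24 mitosis genes fell, and none of the 48 rose. Of all 15976 genes tested, 51.0% were called, 26.9% lower and 24.1% higher. The median log2 fold change was -0.81 over the replication genes and -1.17 over the mitosis genes, beside -0.06 over all genes tested. Control and IMQ libraries did not overlap, with IMQ lower, for 20 replication and 21 mitosis genes, against 38.9% of all genes. DESeq2 called 35 members lower, beside 21.3% of its genes. Bulk skin cannot tell fewer dividing cells from less RNA per cell.

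**Figure D1:**
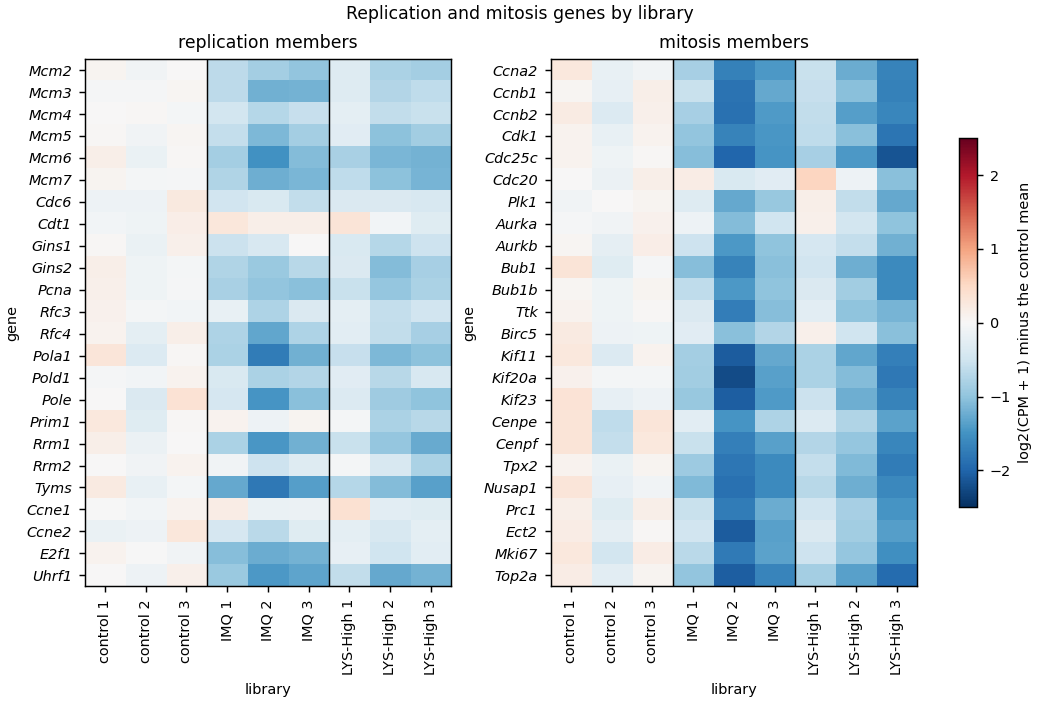
Each cell is log2(CPM + 1) of 1 gene in 1 library minus the mean of the 3 control libraries, with replication genes on the left and mitosis genes on the right, and blue is lower than control. Nearly all genes are lower in the IMQ and LYS-High libraries, IMQ 1 and LYS-High 1 are the palest of their groups, and Cdt1, Ccne1 and Cdc20 stay near 0 or above it in several of them.

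Among the replication genes, the sliding clamp Pcna, which holds polymerases on DNA, stood at 154, 131 and 138 CPM in the control libraries, 79.8, 70.4 and 67.99 in the IMQ libraries and 95.2, 71.3 and 80.6 in the LYS-High libraries. All control libraries were above all others, and the IMQ and LYS-High values overlapped. The log2 fold change in IMQ against control was -0.89 ± 0.12 (SE; edgeR, adjusted p = 4.48e-04), a 1.86-fold lower level. Of its loader, Rfc4 fell by 0.97 on the log2 scale (edgeR, adjusted p = 0.00575), while Rfc3 had a log2 fold change of -0.38 ± 0.19 (SE; edgeR, adjusted p = 0.1102) and was not called.

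The MCM helicase fell nearly as a whole. Of its 6 subunits, 5 were called lower, with log2 fold changes from -1.09 (Mcm6) to -0.78 (Mcm2). Mcm6 stood at 96.7, 77.6 and 88.6 CPM in the control libraries, 47.7, 30.1 and 40.6 in the IMQ libraries and 49.1, 38.96 and 37.7 in the LYS-High libraries. Every control library was above every other library. Mcm3 stood at 57.2, 57.8 and 61.1 CPM in the control libraries, 36.8, 24.8 and 25.4 in the IMQ libraries and 46.9, 34.8 and 37.4 in the LYS-High libraries, and again the control libraries did not overlap the others. Mcm4, the subunit left over, passed the adjusted p in edgeR (0.00379) but not the size, at -0.52.

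Neither protein that loads the ring was called. Cdt1, the licensing factor that is destroyed in S phase, stood at 23.5, 22.7 and 27.7 CPM in the control libraries, 30.1, 27.2 and 27.4 in the IMQ libraries and 31.1, 23.4 and 19.7 in the LYS-High libraries. The 3 groups overlapped, and its log2 fold change of 0.26 ± 0.13 (SE; edgeR, adjusted p = 0.126) was the most positive of the 48. Cdc6, the other loader, had -0.50 ± 0.20 (SE; edgeR, adjusted p = 0.0568) and was not called. The GINS complex, which completes the active helicase, split between Gins2 at -0.82 ± 0.17 (SE; edgeR, adjusted p = 0.00375) and Gins1 at -0.27 ± 0.21 (SE; edgeR, adjusted p = 0.288). Gins1 stood at 10.8, 9.32 and 11.7 CPM in the control libraries, 6.998, 7.83 and 10.6 in the IMQ libraries and 7.92, 6.04 and 7.06 in the LYS-High libraries, and IMQ 3 lay within the control range.

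DNA polymerase genes fell, and the primase subunit was not called. Pola1, the polymerase that extends the primer, stood at 39.5, 25.1 and 32.6 CPM in the control libraries, 18.03, 8.82 and 13.3 in the IMQ libraries and 21.2, 14.2 and 15.1 in the LYS-High libraries. The control libraries did not overlap the others, and the log2 fold change was -1.21 ± 0.27 (SE; edgeR, adjusted p = 0.00542). Pole and Pold1, the leading and lagging strand polymerases, fell by 0.95 and 0.59 on the log2 scale (edgeR, adjusted p = 0.0294 and 0.0104). The call of Pole held in 8 and that of Pold1 in 7 of 12 other settings, and both were lost without IMQ 2, IMQ 3 or control 3, Pole also without control 1 and Pold1 also with DESeq2 or RLE factors. Prim1, which makes the RNA primer and works in 1 complex with Pola1, stood at 27.5, 18.4 and 23.3 CPM in the control libraries, 24.3, 20.9 and 24.002 in the IMQ libraries and 21.9, 12.8 and 13.7 in the LYS-High libraries. Its control and IMQ libraries overlapped, with a log2 fold change of 0.06 ± 0.17 (SE; edgeR, adjusted p = 0.776).

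Nucleotide supply was uneven in the same way. Tyms, the thymidylate synthase, stood at 39.1, 29.3 and 32.1 CPM in the control libraries, 13.05, 8.89 and 12.2 in the IMQ libraries and 19.8, 15.1 and 12.3 in the LYS-High libraries. It had the largest fall of the replication genes at -1.50 ± 0.19 (SE; edgeR, adjusted p = 3.15e-04), a 2.82-fold lower level, with no overlap between control and IMQ. Rrm1, the large subunit of ribonucleotide reductase, fell by 1.09 on the log2 scale (edgeR, adjusted p = 0.00127). Rrm2, its small subunit, stood at 58.8, 55.1 and 62.1 CPM in the control libraries, 54.97, 40.8 and 46.9 in the IMQ libraries and 56.7, 44.1 and 33.3 in the LYS-High libraries. Its control and IMQ values lay close, only just apart at 55.1 and 55.0, and the log2 fold change of -0.24 ± 0.13 (SE; edgeR, adjusted p = 0.1503) was not called.

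Of the regulators of S phase entry, E2f1 and Uhrf1 fell and both E cyclins were not called. E2f1, an activating E2F factor, stood at 24.7, 22.98 and 21.5 CPM in the control libraries, 10.6, 9.18 and 9.601 in the IMQ libraries and 19.9, 15.9 and 19.05 in the LYS-High libraries. The groups were fully apart, in the order control, LYS-High, IMQ, and the log2 fold change in IMQ was -1.18 ± 0.14 (SE; edgeR, adjusted p = 2.45e-04). Uhrf1, which keeps DNA methylation at the fork, stood at 73.9, 67.5 and 80.7 CPM in the control libraries, 38.6, 26.8 and 28.9 in the IMQ libraries and 47.5, 29.8 and 31.9 in the LYS-High libraries, with a log2 fold change of -1.18 ± 0.16 (SE; edgeR, adjusted p = 4.96e-04). Ccne1, a cyclin partner of CDK2, stood at 9.33, 8.89 and 10.1 CPM in the control libraries, 10.9, 8.25 and 8.38 in the IMQ libraries and 12.6, 7.71 and 7.42 in the LYS-High libraries, and the groups overlapped throughout. Its log2 fold change was 0.03 ± 0.18 (SE; edgeR, adjusted p = 0.912) and that of Ccne2 was -0.47 ± 0.22 (SE; edgeR, adjusted p = 0.0952). Within the replication genes, the 7 with an E2F motif had a median log2 fold change of -0.98 and the 12 matched genes without it -0.84, over ranges that overlap.

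**Figure D2:**
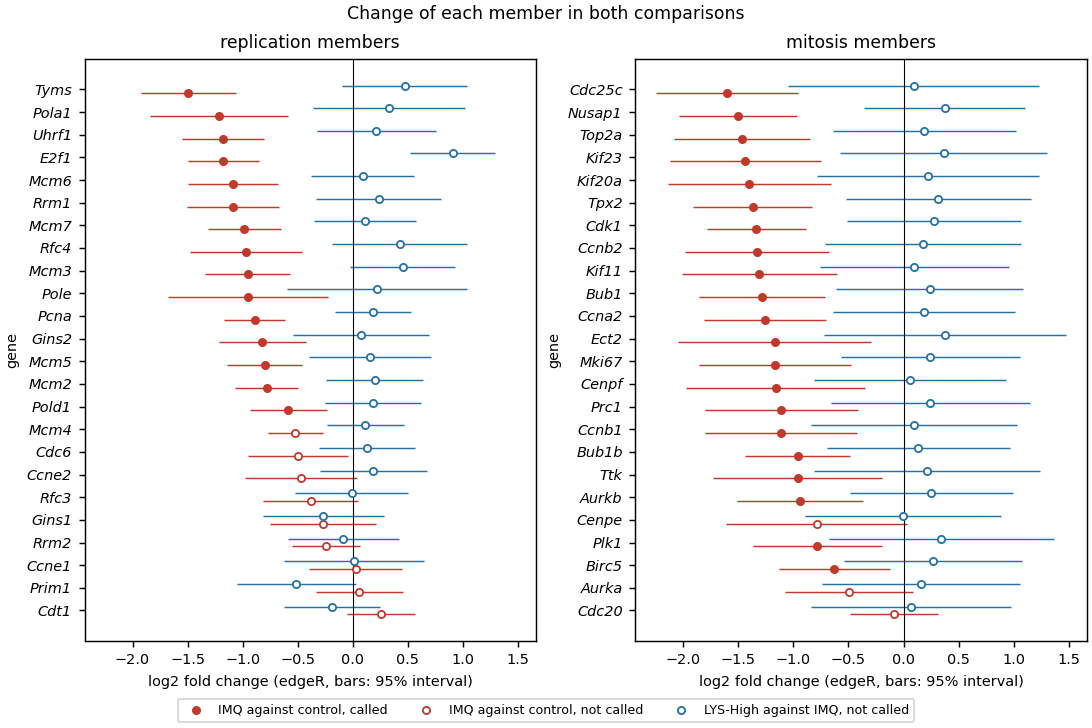
Points are log2 fold changes from edgeR with their 95% intervals for the 24 replication (left) and 24 mitosis (right) genes, ordered by the change in IMQ against control (red), with LYS-High against IMQ in blue and called genes filled. All 36 filled points are red and lie left of 0, and the blue intervals include 0 for all genes except E2f1.

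More of the mitosis genes fell, and further in the median. Mki67, the Ki67 antigen, stood at 279, 169 and 263 CPM in the control libraries, 145, 67.6 and 91.4 in the IMQ libraries and 162, 118 and 78.98 in the LYS-High libraries. All control libraries were above all others, although control 2, at 169 CPM, was close to LYS-High 1. The log2 fold change in IMQ was -1.17 ± 0.30 (SE; edgeR, adjusted p = 0.0102), a 2.24-fold lower level. Top2a, the topoisomerase that untangles sister DNA, stood at 224, 163 and 207 CPM in the control libraries, 98.4, 46.2 and 61.6 in the IMQ libraries and 108, 76.02 and 50.7 in the LYS-High libraries. It had no overlap between control and IMQ and a log2 fold change of -1.47 ± 0.27 (SE; edgeR, adjusted p = 0.00208).

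The kinase that starts mitosis and its partners all fell. Ccna2, Ccnb1, Ccnb2 and Cdk1 had log2 fold changes from -1.34 (Cdk1) to -1.11 (Ccnb1). Cdc25c, the phosphatase that activates CDK1, stood at 13.6, 11.7 and 13.03 CPM in the control libraries, 5.57, 2.49 and 3.94 in the IMQ libraries and 6.68, 4.09 and 2.08 in the LYS-High libraries. This was the largest fall of the 48, at -1.60 ± 0.28 (SE; edgeR, adjusted p = 0.0015998), and a 3.04-fold lower level.

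Cdc20 stood apart from the other mitosis genes. It activates the anaphase promoting complex, and it stood at 43.9, 39.4 and 48.8 CPM in the control libraries, 49.8, 33.7 and 35.7 in the IMQ libraries and 64.3, 39.99 and 20.8 in the LYS-High libraries. All 3 groups overlapped, IMQ 1 was above every control library, and the log2 fold change was -0.09 ± 0.17 (SE; edgeR, adjusted p = 0.677). Aurka, a kinase of the spindle poles, stood at 15.3, 14.6 and 16.9 CPM in the control libraries, 14.2, 6.83 and 10.8 in the IMQ libraries and 17.2, 11.1 and 7.24 in the LYS-High libraries, with a log2 fold change of -0.49 ± 0.25 (SE; edgeR, adjusted p = 0.123) that was not called although control and IMQ did not overlap. The remaining kinases, Aurkb, Plk1, Bub1, Bub1b and Ttk, were all called lower, from -1.28 (Bub1) to -0.78 (Plk1).

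Birc5, survivin, which works with AURKB at centromeres, stood at 30.4, 23.5 and 23.9 CPM in the control libraries, 20.99, 12.03 and 15.1 in the IMQ libraries and 28.05, 18.01 and 11.99 in the LYS-High libraries. It had the smallest called fall of the mitosis genes, at -0.63 ± 0.22 (SE; edgeR, adjusted p = 0.0357). Its call and that of Plk1 held in 6 of 12 other settings, and both were lost with all 9 libraries in 1 fit and on leaving out any 1 library other than IMQ 1. Of the 36 members called, 29 were called in all 12, and the others were Pole, Pold1, Birc5, Plk1, Ttk (7 of 12), Cenpf (8 of 12) and Ect2 (9 of 12). Kif11, the motor that pushes spindle poles apart, stood at 72.7, 47.998 and 64.2 CPM in the control libraries, 33.4, 13.5 and 24.5 in the IMQ libraries and 34.6, 23.9 and 17.98 in the LYS-High libraries. Its control libraries did not overlap the others, and the log2 fold change was -1.31 ± 0.31 (SE; edgeR, adjusted p = 0.00667). Kif23, a motor of the central spindle, stood at 41.5, 28.3 and 29.6 CPM in the control libraries, 16.5, 7.04 and 11.5 in the IMQ libraries and 22.2, 13.5 and 9.61 in the LYS-High libraries. Its change was -1.44 ± 0.30 (SE; edgeR, adjusted p = 0.0037002), close to the -1.40 of Kif20a, another motor of cytokinesis.

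Both kinetochore members varied widely among the control libraries. Cenpe, a kinetochore motor, stood at 38.2, 19.2 and 37.7 CPM in the control libraries, 25.1, 10.2 and 17.3 in the IMQ libraries and 23.6, 17.7 and 11.4 in the LYS-High libraries. Control 2 was below IMQ 1, the groups overlapped, and the log2 fold change of -0.79 ± 0.36 (SE; edgeR, adjusted p = 0.0879) was not called. Cenpf, which also binds the kinetochore, stood at 47.8, 24.9 and 45.5 CPM in the control libraries, 25.6, 10.8 and 14.1 in the IMQ libraries and 22.3, 18.8 and 11.6 in the LYS-High libraries, with control 2 again below IMQ 1. Its log2 fold change was -1.16 ± 0.35 (SE; edgeR, adjusted p = 0.0214), and it was called.

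The spindle and midzone genes were all called lower. Nusap1, which bundles spindle microtubules, stood at 49.1, 34.1 and 37.1 CPM in the control libraries, 17.9, 10.2 and 12.5 in the IMQ libraries and 24.05, 16.5 and 12.2 in the LYS-High libraries. The control libraries did not overlap the others, and the log2 fold change was -1.50 ± 0.23 (SE; edgeR, adjusted p = 8.99e-04). Ect2, which sets the site of the cleavage furrow, stood at 31.4, 23.2 and 28.1 CPM in the control libraries, 19.3, 5.69 and 10.03 in the IMQ libraries and 21.1, 14.6 and 9.97 in the LYS-High libraries, with a log2 fold change of -1.17 ± 0.38 (SE; edgeR, adjusted p = 0.02704). Tpx2 and Prc1, a spindle assembly factor and a midzone crosslinker, had -1.37 and -1.11. The 8 mitosis genes with a CHR motif had a median log2 fold change of -1.24 and the 11 matched genes without it -0.96, over ranges that overlap.

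**Figure D3:**
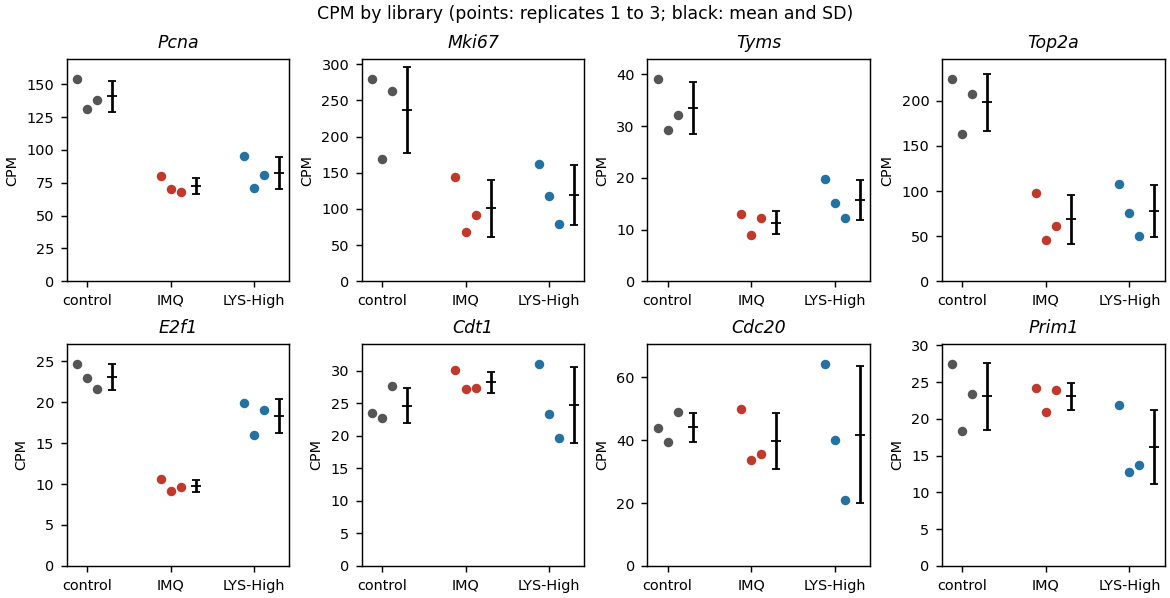
CPM of 8 genes in the 9 libraries, with colored points for replicates 1 to 3 from left to right and black marks for the mean and SD, on linear axes from 0. Pcna, Mki67, Tyms and Top2a are highest in all control libraries, E2f1 separates the 3 groups, and Cdt1, Cdc20 and Prim1 overlap between control and IMQ.

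Taking all 24 genes of a kind together, mitosis fell further than replication and varied more between libraries. The mean log2(CPM + 1) of the replication genes was 5.06 ± 0.11 in control, 4.31 ± 0.20 in IMQ and 4.45 ± 0.25 in LYS-High (SD, n = 3). That of the mitosis genes was 5.26 ± 0.21, 4.09 ± 0.51 and 4.28 ± 0.54 in the same order. The difference between IMQ and control was -0.75 for replication and -1.17 for mitosis. These values have no test, because the genes were chosen with results of these data known.

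The balance between both kinds moved with the library. Summed over its 24 genes, mitosis reached 1.20, 0.993 and 1.16 times the summed replication CPM in the control libraries. The ratio was 1.06, 0.683 and 0.834 in the IMQ libraries and 1.04, 0.996 and 0.655 in the LYS-High libraries. IMQ 1, LYS-High 1 and LYS-High 2 were above the ratio of control 2, and the other IMQ and LYS-High libraries were below it. On the scale of mean log2(CPM + 1), where every gene weighs the same, replication minus mitosis was -0.30, -0.0947 and -0.20 in the control libraries, -0.0946, 0.52 and 0.25 in the IMQ libraries and -0.0778, 0.0120 and 0.58 in the LYS-High libraries. Here all control libraries were lowest, though control 2 and IMQ 1 were level. The median coefficient of variation over the replication genes was 9.55% in control, 17.4% in IMQ and 21.9% in LYS-High, and over the mitosis genes 15.0%, 38.7% and 39.4%.

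The spread was shared, since mitosis genes ranked the libraries alike. Within the IMQ group, IMQ 2 was lowest for all 24 mitosis genes and IMQ 1 highest for 23. Within the LYS-High group, LYS-High 3 was lowest and LYS-High 1 highest for all 24. Replication genes ranked LYS-High 1 highest for 23 of 24, but divided the lowest place between LYS-High 2 with 13 and LYS-High 3 with 11. Control 2 was lowest for 23 mitosis and 19 replication genes.

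**Figure D4:**
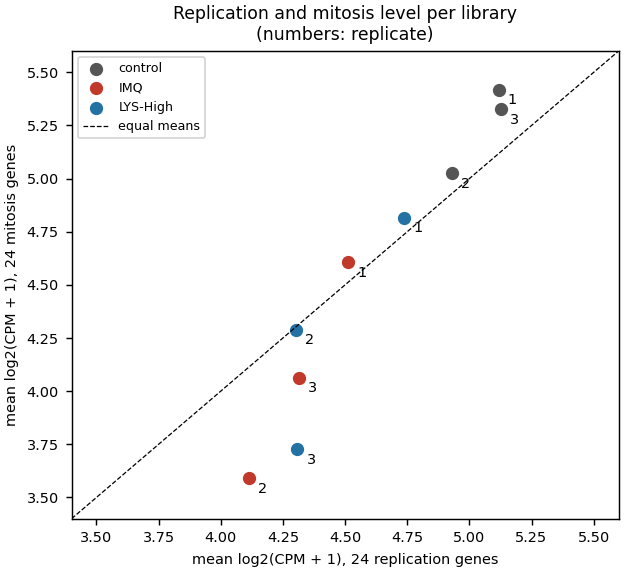
Each point is a library, with the mean log2(CPM + 1) of the 24 replication genes on the x axis and of the 24 mitosis genes on the y axis, the replicate number beside it, and equal means on the dashed line. Control libraries lie above the line near 5, control 2 by as little as IMQ 1 and LYS-High 1, while LYS-High 2 lies on the line and IMQ 2 and LYS-High 3 lie farthest below it.

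No member was called between LYS-High and IMQ skin. By edgeR, 0 of the 15460 genes tested passed, which is a background of 0%, with a lowest adjusted p of 0.0591 over all genes. Before adjustment, 5435 genes (35.2%) had a p below 0.05, and 1 of them was a member, E2f1. DESeq2 called 1951 genes higher (13.3%) and 1394 lower (9.49%), and again E2f1 was the only member. The study reported genes called in both directions for this comparison at the same thresholds, and its text names no tool for the test. In sign, 19 of 24 replication and 23 of 24 mitosis genes were higher in LYS-High, with median log2 fold changes of 0.17 and 0.22, beside 0.04 over all genes tested. These signs rested on LYS-High 1. Without it 13 members were higher and 35 lower, and without IMQ 2, 26 were higher and 22 lower.

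The study measured PCNA and Ki67 protein in skin by blot and by staining. It reported both as higher in IMQ than in control and lower with LYS. The values here are of RNA, which for both genes was lower in IMQ than in control. Neither transcript was called between LYS-High and IMQ. Pcna had a log2 fold change of 0.18 ± 0.15 (SE; edgeR, adjusted p = 0.395) in LYS-High against IMQ, with a 95% interval of -0.16 to 0.52. Mki67 had 0.24 ± 0.34 (SE; edgeR, adjusted p = 0.638), with an interval of -0.57 to 1.06. Both intervals hold 0. That of Pcna lies within 0.58 on either side, and that of Mki67 extends past 0.58 on its upper side. Without LYS-High 1 the value of Mki67 turned to -0.0425.

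E2f1 was the only member whose LYS-High and IMQ libraries did not overlap, where 19.2% of all genes tested were apart with LYS-High higher. Its level was 15.9 to 19.9 CPM in LYS-High and 9.18 to 10.6 CPM in IMQ, as given above. The log2 fold change was 0.91 ± 0.16 (SE; edgeR, adjusted p = 0.0591), with an interval of 0.52 to 1.29, and an unadjusted p of 8.21e-04. It was called in 5 of 12 other settings, among them DESeq2 and the fit without LYS-High 1. Its adjusted p ranged from 4.78e-04 to 0.22 over these settings.

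None of the other members with the largest values was called. Among replication genes, Tyms had 0.47 ± 0.24 (SE; edgeR, adjusted p = 0.202) and Mcm3 0.45 ± 0.20 (SE; edgeR, adjusted p = 0.158). Prim1, Gins1 and Cdt1 had the most negative values, at -0.51, -0.27 and -0.19 (edgeR, adjusted p = 0.157, 0.429 and 0.486). Rrm2 and Rfc3 were also below 0, at -0.09 and -0.01. Among mitosis genes, values ran from -0.00 for Cenpe, 0.06 for Cenpf and 0.07 for Cdc20 to 0.37 for Kif23, 0.37 for Nusap1 and 0.38 for Ect2, with standard errors of 0.31 to 0.46 for these 6. Without LYS-High 1, where 14.9% of all genes were called higher and 11.9% lower, E2f1 rose and Prim1 fell, and these were the 2 members called.

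Against control, LYS-High skin had fewer members called than IMQ skin. In this comparison, which shares the control libraries with that of IMQ, 10 of 24 replication and 15 of 24 mitosis genes were called lower and none higher, beside 12.9% of all 16003 genes called lower and 15.1% called higher. The median log2 fold changes were -0.59 and -1.07, and -0.01 over all genes. The difference between both comparisons is the comparison of LYS-High with IMQ given above.

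Among replication genes the largest falls were Tyms at -1.07 ± 0.23 (SE; edgeR, adjusted p = 0.0113), Mcm6 at -1.05 and Uhrf1 at -1.01. Pcna had -0.76 ± 0.16 (SE; edgeR, adjusted p = 0.0115) and was called. Cdt1, Ccne1 and E2f1 had the values nearest to 0, at 0.02, -0.01 and -0.32. Of these, E2f1 had LYS-High libraries all below the control libraries, and the other pair overlapped.

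Among mitosis genes Cdc25c (-1.56), Top2a (-1.32) and Kif11 (-1.26) had the largest falls. Mki67 had -0.97 ± 0.31 (SE; edgeR, adjusted p = 0.0487), just past the threshold. Cdc20, Aurka and Birc5 were again nearest to 0, at -0.06, -0.38 and -0.40, and their groups overlapped. The count of 25 depended on single libraries, and 4 of the 25, all replication genes, were called in all of these 12 settings. It was 4 without LYS-High 2, 6 without control 1, 9 without control 3 and 40 without LYS-High 1, and 31 by DESeq2, where 7.02%, 6.60%, 9.90%, 13.4% and 12.4% of all genes were called lower.

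The rest of the cell cycle machinery was read from 10 further lists without any of the 48 genes. In IMQ against control, 69 of their 153 tested genes were called lower and 14 higher, and each count is to be read against the 26.9% of all genes called lower and 24.1% called higher. The lists of mitotic structures had shares lower that were well above this background. Of the kinetochore and cohesion genes 14 of 17 were called lower, led by Cenpk (-1.55) and Spc25 (-1.41). Of the spindle and cytokinesis genes 14 of 19 were lower, led by Kif15 (-1.32) and Nek2 (-1.31). Of the condensin genes, which compact chromosomes, 6 of 8 were lower, led by Ncapg (-1.43) and Ncaph (-1.40). None of these 3 lists had a gene called higher.

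Replication lists had smaller shares called. Of the origin licensing and firing genes, 5 of 16 were lower, a share near the 26.9% of all genes, led by Cdc7 (-1.22) and Orc6 (-0.93). Of the fork and nucleotide genes, 12 of 26 tested were lower, a larger share than that of all genes, among them Clspn (-1.37). Neither list had a gene called higher. Fen1 was left out by the filter on low counts, and nothing is read from this about its level in skin.

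Lists of regulators had genes called in both directions, in shares mostly near the 26.9% lower and 24.1% higher of all genes tested, so nothing is read from their counts. Of the G1 cyclins and kinases 3 of 11 fell and 1 rose, with Ccnd2 at -3.16 ± 0.23 (SE; edgeR, adjusted p = 2.94e-05) and Ccnd1 at -1.10. Of the CDK inhibitors and pocket proteins 2 of 10 fell and 2 rose, led by the fall of Cdkn2c (-2.13) and the rise of Cdkn1a (1.58), which encodes p21. Of the E2F, MuvB and FoxM1 regulators 5 of 17 fell, led by Foxm1 (-1.20 ± 0.28 (SE; edgeR, adjusted p = 0.00697)) and E2f2 (-1.16), and 5 rose. The risen genes were E2f4, E2f8, Lin9, Lin37 and Lin54, of which the last 3 encode MuvB subunits and E2f4 and E2f8 encode factors known to repress. The other 12 genes of this list had log2 fold changes below 0. Among them were the MuvB genes Lin52 and Rbbp4 and the E2F genes E2f5, E2f6 and E2f7, so neither kind rose as a whole.

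In the last 2 lists the shares called lower were not far from the 26.9% of all genes. The shares called higher lay below and above the 24.1% of all genes, and nothing is read from these small counts. Of the anaphase promoting complex genes 5 of 15 fell and 1 rose, with Cdc23 at -0.93 and its activator Fzr1 at 0.93. Of the checkpoint kinases and p53 targets 3 of 14 fell and 5 rose, led by Sesn2 (2.45) and Gadd45b (2.42), both stress response genes. In LYS-High against IMQ, none of the 153 tested genes of the 10 lists was called by edgeR. DESeq2 called 4 higher (Ccnd2, Ccnd3, Cdkn1c and E2f7) and 4 lower (Cdkn2b, Lin37, Gadd45a and Btg2), beside its 13.3% higher and 9.49% lower over all genes. The edgeR fit of all 9 libraries called 3 higher and 4 lower, beside 9.93% higher and 8.62% lower over all genes.

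**Figure D5:**
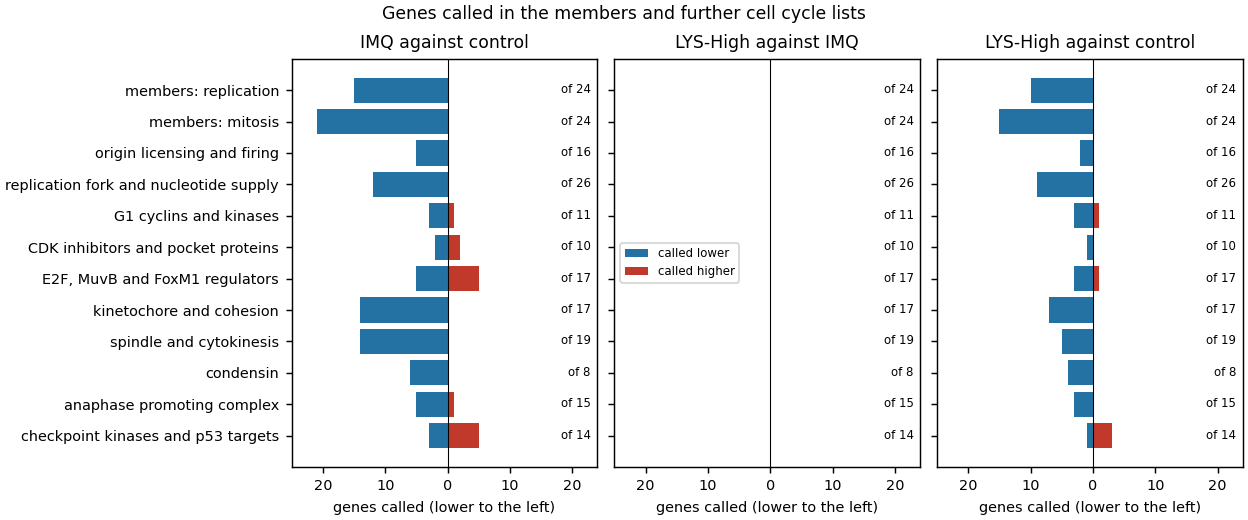
Bars count the genes called lower (blue, to the left) and higher (red, to the right) in the 2 member sets and 10 further lists, with the number tested at the right of each panel. In IMQ against control the mitosis lists reach 21, 14, 14 and 6 genes lower with none higher, regulators go both ways, and the panel of LYS-High against IMQ holds no gene.

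Markers of the cells that make up skin moved with the comparison, and their part in these results was not tested. Skin was recognizable in all groups from its keratinocyte markers. Summed over 7 basal keratinocyte markers, CPM were 2116 to 3145 in control, 10343 to 12393 in IMQ and 7559 to 12933 in LYS-High, with 6 of 7 called higher and 1 lower in IMQ against control. All 5 suprabasal markers rose, from 3992 to 6936 CPM summed in control to 29165 to 50962 in IMQ, and were at 10794 to 20824 in LYS-High. The members were lower than control in both IMQ and LYS-High, and a link to these sums was not tested.

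Hair matrix and inner root sheath markers moved in the same direction as the members and further. Of 12 markers tested, 11 were called lower and 1 higher in IMQ, and their summed CPM went from 2624 to 5643 in control to 67.1 to 88.2 in IMQ and 27.2 to 66.8 in LYS-High. Krt25 and Krt35 had at most 3 counts in every IMQ library, and Krt25, Krt35, Krt71 and Dsg4 in every LYS-High library. All 6 fibroblast markers also fell, from 21734 to 28003 CPM summed in control to 3205 to 10288 in IMQ, and were at 8903 to 18025 in LYS-High. Other dermal and appendage markers also moved in the direction of the members. In IMQ against control all 5 endothelial, 5 adipocyte, 5 skeletal muscle, 4 sebaceous gland and 4 melanocyte markers were called lower. Summed CPM in control, IMQ and LYS-High were 357 to 518, 135 to 276 and 274 to 565 for endothelium, and 2586 to 7633, 241 to 788 and 849 to 2094 for adipocytes. They were 8328 to 9319, 1433 to 3496 and 3541 to 7533 for skeletal muscle. The sebaceous gland sums were 160 to 184, 29.2 to 46.1 and 63.2 to 103, and the melanocyte sums 290 to 457, 12.6 to 31.1 and 18.3 to 28.8.

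Immune markers differed by cell type. The 4 tested of 5 neutrophil markers rose in IMQ, from 21.2 to 28.1 CPM summed in control to 204 to 584, and the sums were 161 to 404 in LYS-High. The 5 T cell markers summed to 11.4 to 14.4 CPM in control, 10.5 to 15.3 in IMQ and 19.9 to 27.2 in LYS-High, with 3 called higher and 2 lower in IMQ and 3 higher in LYS-High against control. Their LYS-High sums were above all others. The 6 macrophage and dendritic cell markers summed to 1093 to 1791, 858 to 1079 and 1534 to 3422 CPM, with 2 called higher and 1 lower in IMQ against control.

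Within the LYS-High group, LYS-High 1, which was highest for 47 of the 48 members, also had the highest basal and suprabasal sums. Its hair, sebaceous gland and neutrophil sums were also the highest of the group. Its fibroblast, endothelial, adipocyte, skeletal muscle, macrophage and dendritic cell, and melanocyte sums were the lowest. Within the IMQ group, IMQ 1 was highest for 42 members and had the highest basal but the lowest suprabasal sum. Its fibroblast, endothelial, adipocyte, macrophage and dendritic cell, and melanocyte sums were the highest of the group, and its neutrophil sum the lowest. Its hair sum of 67.07 CPM was level with that of IMQ 3 at 67.13. The highest hair sum of the group, 88.2 CPM, was that of IMQ 2, which was lowest for 44 members. With 3 libraries per group, this order was not tested.

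Counting limits touch some genes. For 13 of the 48 members an exon overlaps that of another gene, mostly on the opposite strand, and the sources used here do not state whether strand was used in counting. The largest exon overlaps were 2758 bases in Gins2, whose exons span 4097 bases, 1115 in Kif20a and 670 in Prc1, all with a gene on the opposite strand. Top2a, Cdc20, Cdc25c, Nusap1, Plk1 and Mcm7 are also among the 13, with smaller overlaps. Pcna, Tyms, Ccnb1 and Ccnb2 have named pseudogenes that could share reads.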

How the data were processed

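Back skin libraries of 3 groups (control, IMQ, LYS-High) were sequenced on an Illumina instrument after preparation with the NEBNext Ultra kit. The authors deposited whole-number read counts per gene, without normalization, and FPKM for the same 29205 genes. The submitters' processing notes name HISAT2, HTSeq 0.13.5 and GRCm38, and the use of strand is not given in the sources used here. Each library sum, 14658645 to 19609878 counts, sets the counting precision, and 0 value columns lacked a sample.

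Counts were tested with edgeR 4.0.16 in R 4.3.3 (TMM, filterByExpr, quasi-likelihood test, Benjamini-Hochberg adjustment over all genes tested) in fits of the 6 compared libraries without a replicate block. Calls required adjusted p < 0.05 together with a log2 fold change beyond 0.58 in either direction. The tool was tested on simulated data. CPM shown per library were scaled by TMM over all 9 libraries, and means over genes used log2(CPM + 1). Replicates of a group differed by more than sampling noise, so all were kept.

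The members and lists were chosen with earlier results of these data known. Values in every library are given for Pcna, Mki67, the 3 largest and 3 smallest log2 fold changes of each kind in each comparison, and members against most of their kind, and from each further list the 2 called genes with the largest change in IMQ against control are named. One gene that this rule names is not reported here. The E2F, MuvB and FoxM1 genes called higher, those named beside them as below 0, and the list genes that DESeq2 called in LYS-High against IMQ are named beyond this rule. They were named after their values were seen. Promoter windows came from RefSeq on GRCm38.p6 and exons from GENCODE M21. Alternatives were DESeq2 1.42.0, RLE factors, library totals alone, no filter on low counts, all 9 libraries in 1 fit, other size thresholds, a replicate block, a pseudocount of 0.1, FPKM, a median over genes, and each library left out. Figures were drawn with matplotlib in Python.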

Additional observations from a re-analysis of the deposited data

How the results depend on the processing

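With 3 libraries per group, and 14658645 to 19609878 counts each, intervals of single members were wide, and no call among members in LYS-High against IMQ held in every setting. The direction of both kinds of genes in IMQ against control was the same in all alternatives run. The count of members called there was 29 to 38 without each library in turn (replication 13 to 15), and 22 at an absolute log2 fold change over 1 (replication 6). Of all genes, 22.8% to 28.8% were called lower without each library, and the share at the size of 1 is not given here. In LYS-High against IMQ the count of members called was 1, a replication gene called higher, with DESeq2, no filter or all 9 libraries in 1 fit. In these settings 13.3%, 5.30% and 9.93% of all genes were called higher, in that order. The count was 0 to 2 without each library (0 to 1 replication genes in each direction), where 0% to 14.9% of all genes were called higher and 0% to 11.9% lower. In LYS-High against control the count of members called was 16 at the size of 1 (replication 3) and 4 to 40 without each library (replication 4 to 17, mitosis 0 to 23). With library totals alone, 17 replication genes were lower. Of all genes, 6.60% to 14.2% were called lower without each library, and 16.9% with library totals alone. Library totals alone moved the median log2 fold change of all genes in IMQ against control to -0.51, and in LYS-High against IMQ to 0.29.

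The difference in the replication mean between IMQ and control was -1.11 with library totals alone, -0.96 with FPKM and -0.54 as a median, with -0.84 to -0.65 without each library. Between LYS-High and IMQ it was 0.38 with library totals alone and -0.0079 to 0.24 without each library. By median log2 fold change, mitosis genes were lower than replication genes in IMQ against control in every alternative fit. The mitosis and replication medians there were -0.93 and -0.73 without IMQ 2, and -1.53 and -0.89 without IMQ 1. In LYS-High against IMQ they were 0.21 and 0.16 with DESeq2, but -0.15 and -0.03 without LYS-High 1.

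Some uncalled members changed sign, and the cause was not tested. With library totals alone, IMQ against control was -0.19 for Cdt1, -0.39 for Prim1 and -0.41 for Ccne1, LYS-High against IMQ was 0.0510 for Cdt1, 0.15 for Rrm2, 0.23 for Rfc3 and 0.21 for Cenpe, and LYS-High against control was -0.14 for Cdt1. With no filter, Ccne1 was -0.0040 in IMQ against control, Cenpe 0.0040 in LYS-High against IMQ and Cdt1 -0.0124 in LYS-High against control. Without each library, in IMQ against control Ccne1 was -0.10 to 0.11, Cdc20 -0.27 to 0.0215, Prim1 -0.0871 to 0.20 and Cdt1 0.19 to 0.35. In LYS-High against IMQ, 29 of the 48 members changed sign without LYS-High 1, and 16 without IMQ 2. Of the members named for that comparison, Cdc20 was -0.39 to 0.39, Cenpe -0.28 to 0.34, Cenpf -0.18 to 0.49 and Kif23 -0.0265 to 0.69. Mki67 was -0.0425 to 0.58, Rfc3 -0.18 to 0.13 and Rrm2 -0.30 to 0.0871, while Cdt1 kept its sign at -0.39 to -0.05. In LYS-High against control, Ccne1 was -0.32 to 0.14, Cdc20 -0.54 to 0.28 and Cdt1 -0.20 to 0.18.

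The replicate numbers gave no sign of pairing the libraries. The correlation of same-numbered libraries' deviations from their group means ranged from -0.48 to 0.21, and that of differently numbered libraries from -0.29 to 0.50. Deviations from a mean of 3 libraries depend on each other, so these values cannot show that there was no pairing. With the replicate block the members called were 37 in IMQ against control, 0 in LYS-High against IMQ and 19 in LYS-High against control. Of all genes, 26.6%, 0% and 8.78% were called lower with it, in the same order. With this block Rfc3 was 0.0062, Cenpe 0.0284 and Cdc20 -0.0436 in LYS-High against IMQ, and Cdt1 was -0.0061 in LYS-High against control.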
